A study of Mus musculus with 8 samples.

Results

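The contractile apparatus of mouse embryonic fibroblasts and its TGF-beta inputs and outputs are described here through 37 genes. They were chosen by name and function, with earlier results of these data known. They comprise 17 genes of actomyosin and its regulator Srf, 7 of adhesion and actin crosslinking, and 13 of TGF-beta signalling. The array carries 89 probes annotated to them among 45281. The rule kept a probe if its detection p was under 0.01 on both arrays of at least 1 genotype, which left 64 member probes for 35 genes, out of 14867 kept probes for 8655 named genes. Cnn1, the basic calponin of smooth muscle, and Smad7, an intracellular TGF-beta antagonist, had no kept probe. Of the 64 kept probes 58 were above background on all 8 arrays.

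The 4 groups, with 2 arrays each, were the double knockout (DKO, Gadd45a-/- Ing1-/-), Gadd45a-/-, Ing1-/- and wild type (WT). All cells came from male C57BL/6 embryos at embryonic stage E15.5 and were collected confluent at passage 3. The labels name no promoter, Cre driver or cell-type restriction, and the design text speaks of duplicates per fibroblast line, so a genotype may be represented by a single line. In that case effects of genotype and of line cannot be told apart, and every p-value reflects only how far these arrays differ, possibly for technical reasons. Both Gadd45a probes were brighter on the arrays labelled DKO and Gadd45a-/- than on the WT arrays, by 0.92 and 1.31 (log2) in DKO and by 1.00 and 1.29 in Gadd45a-/-. This is the reverse of what the labels say, and it was not possible to check whether these probes target sequence that remains in the knockout allele, since the labels do not describe the deletion. The Ing1 probe was above background on no array. Every direction below is therefore that of arrays as labelled. The fibroblast markers (Vim, Thy1, Pdgfra, Pdgfrb, Col1a1, Col1a2, Col3a1, Fn1, S100a4 and Twist1) were all measured, and the arrays had between 14277 and 14778 probes above background. The WT arrays correlated less with each other (r = 0.9876 over kept probes) than 1 of them did with an array of another genotype (0.9889), while in DKO, Gadd45a-/- and Ing1-/- the replicate was the closest array. With 2 arrays a genotype, precision is limited throughout.

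Fibroblasts pull on their matrix with bundles of actin and non-muscle myosin II that end in focal adhesions. Myosin light chain kinase switches the motor on by phosphorylating the regulatory light chain, and calponins, caldesmon and tropomyosins tune how the motor meets the filament. Transcription of many of these genes runs through SRF, which binds CArG boxes together with MRTF or myocardin, and TGF-beta raises many of them when fibroblasts turn into myofibroblasts. TGF-beta is secreted as a latent complex held by LTBP proteins and is sensed by the type II receptor, which activates the type I receptor. SMAD7 and SKIL dampen the signal, and TGFBI, CTGF, CYR61 and thrombospondin 1 are among the secreted products it can raise.

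Promoter sequence is shown for 6 members. Mylk is the member with the largest and most stable difference below, and Srf, Myl9, Myl6, Cnn2 and Vcl are those whose upstream window holds a CArG box. Sequences are from RefSeq (GRCm38.p6), and windows run over the 250 bases before the annotated start. A window was found for 30 of the 37 genes, 34 windows in all; Tagln, Myh11, Tgfb3, Ctgf, Smad7, Skil and Thbs1 had none. Both strands were searched for CAGACA (the core of SMAD-binding elements), GGAATG (the core of TEAD-binding M-CAT elements) and the CArG box. Only the strict form of the CArG box counted, CCWWWWWWGG with W being A or T. A CArG box was present in 5 of 34 member windows (14.7%) against 1.47% of all 32851 windows, CAGACA in 8 (23.5%) against 17.1%, and GGAATG in 11 (32.4%) against 12.6%. The first line gives the Mylk window, chr16:34784700-34784949 on the plus strand, with its CAGACA match (read as TGTCTG) and its GGAATG match (read as CATTCC) in capitals. The other lines give 60-base stretches with the CArG boxes in capitals: Srf at chr17:46556200-46556259 (minus strand), Myl9 at chr2:156775278-156775337 (plus), Myl6 at chr10:128493025-128493084 (minus), Cnn2 at chr10:79988519-79988578 (plus) and Vcl at chr14:20929148-20929207 (plus).
Mylk: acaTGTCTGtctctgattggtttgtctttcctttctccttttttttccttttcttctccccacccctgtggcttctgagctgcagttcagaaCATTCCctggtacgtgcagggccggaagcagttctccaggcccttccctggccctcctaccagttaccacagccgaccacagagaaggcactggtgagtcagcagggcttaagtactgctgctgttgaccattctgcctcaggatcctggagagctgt
Srf: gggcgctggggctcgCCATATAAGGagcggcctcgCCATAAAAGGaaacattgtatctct
Myl9: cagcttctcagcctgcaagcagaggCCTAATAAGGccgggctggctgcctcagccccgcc
Myl6: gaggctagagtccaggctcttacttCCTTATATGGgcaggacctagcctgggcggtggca
Cnn2: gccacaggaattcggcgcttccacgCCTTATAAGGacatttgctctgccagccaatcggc
Vcl: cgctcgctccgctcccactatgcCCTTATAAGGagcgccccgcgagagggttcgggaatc
A match is a description of the letters and not of a bound site. None of the 5 CArG-holding members was called in any of the 7 comparisons, where called means a limma adjusted p under 0.05 over all 14867 kept probes. Of all kept probes, from 0.148% (interaction) to 3.8% (DKO minus WT) were called, so 5 genes can well hold no call.

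Mylk, the myosin light chain kinase gene, was higher in all 3 knockout genotypes than in WT, most in DKO, at each of its 3 kept probes. Levels are log2 normalized intensities throughout, with replicate 1 before replicate 2. Probe ILMN_1218347 read 11.28 and 11.37 in DKO, 10.53 and 10.59 in Gadd45a-/-, 10.61 and 10.72 in Ing1-/-, and 10.03 and 9.91 in WT. Probe ILMN_1219471 read 10.50 and 10.65 in DKO, 9.9999 and 9.91 in Gadd45a-/-, 9.69 and 9.91 in Ing1-/-, and 8.67 and 9.06 in WT. Probe ILMN_2662602 read 10.20 and 10.27 in DKO, 9.59 and 9.75 in Gadd45a-/-, 9.49 and 9.53 in Ing1-/-, and 8.87 and 8.64 in WT. At every probe both DKO arrays lay above all 4 single-knockout arrays, and these lay above both WT arrays. The gene gives rise to a long form, a smooth muscle form and the kinase-less telokin, and which of them each probe detects was not examined.

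**Figure D1:**
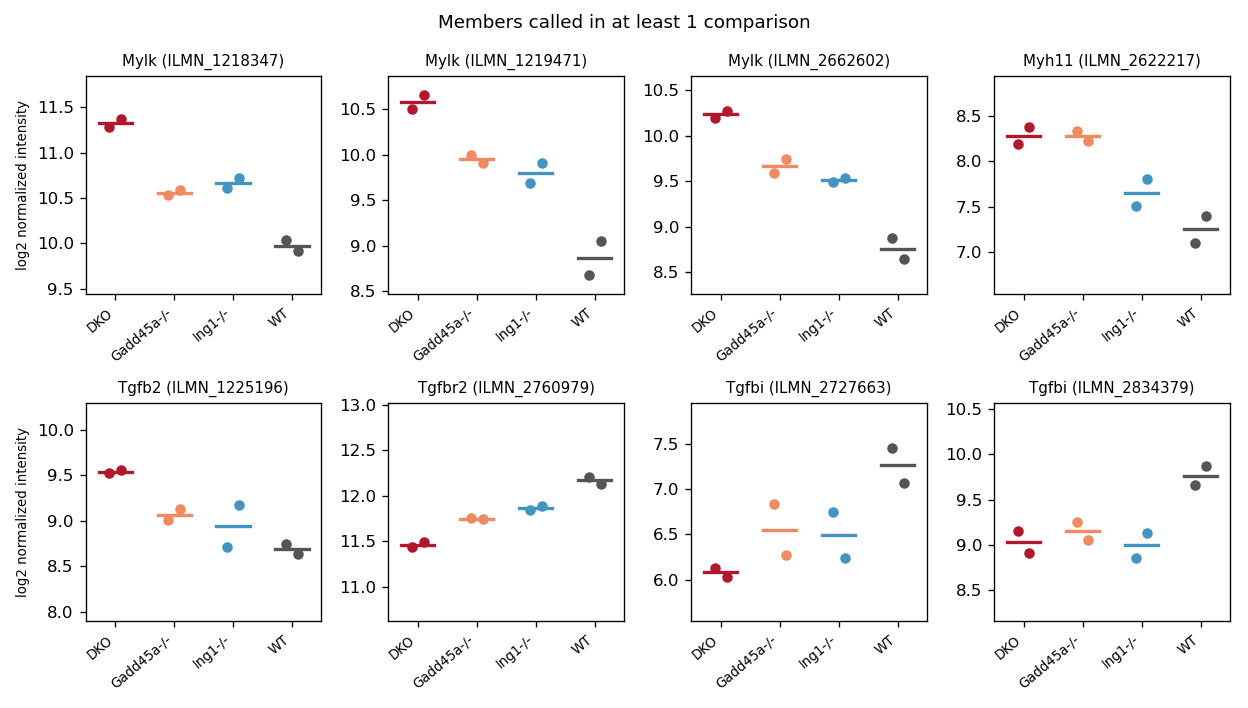
Log2 normalized intensity (y axis) on each array for the 8 member probes called in at least 1 comparison, by genotype (x axis); points are arrays and bars are means of 2. The 3 Mylk probes step down from DKO over both single knockouts to WT, and Tgfbr2 steps the other way, with DKO at 11.43 and 11.49 and WT at 12.21 and 12.13.

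Against WT, Mylk rose in DKO by 1.35 ± 0.11, 1.71 ± 0.16 and 1.48 ± 0.13 at the 3 probes in the order above (log2 difference ± SE, limma adjusted p = 0.0012, 0.0016 and 0.0012). These are 2.55-fold, 3.28-fold and 2.79-fold. In Gadd45a-/- the differences from WT were 0.59 ± 0.11 (limma adjusted p = 0.061), 1.09 ± 0.16 (0.021) and 0.91 ± 0.13 (0.018), so 2 of the 3 probes were called. In Ing1-/- they were 0.69 ± 0.11, 0.93 ± 0.16 and 0.76 ± 0.13, and none was called (limma adjusted p = 0.056, 0.065 and 0.060). The DKO calls held with any 1 of the 8 arrays left out, with limma adjusted p from 0.0039 to 0.023 over the 3 probes. The Gadd45a-/- call of ILMN_1219471 ended when WT replicate 1 was left out (limma adjusted p = 0.072), or either Gadd45a-/- array (0.13 and 0.12) or either DKO array (0.052 each), and that of ILMN_2662602 without WT replicate 2 (0.087) or either Gadd45a-/- array (0.086 and 0.13).

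The double knockout was also set against each single knockout. Mylk in DKO exceeded Gadd45a-/- by 0.77 ± 0.11, 0.62 ± 0.16 and 0.56 ± 0.13, with 1 probe called (limma adjusted p = 0.044, 0.22 and 0.17). It exceeded Ing1-/- by 0.66 ± 0.11, 0.78 ± 0.16 and 0.72 ± 0.13, with 2 probes called (limma adjusted p = 0.042, 0.075 and 0.045). The DKO minus Gadd45a-/- call was lost without any 1 of the 8 arrays (limma adjusted p from 0.051 to 0.34). The DKO minus Ing1-/- call of ILMN_1218347 was lost likewise (limma adjusted p from 0.052 to 0.29), and that of ILMN_2662602 was lost without any array of a knockout genotype (from 0.073 to 0.29). With the replicate number as a block, none of these calls remained. Gadd45a-/- minus Ing1-/- was -0.11, 0.16 and 0.16 at the 3 probes, with 95% intervals from -0.37 to 0.15, from -0.21 to 0.52 and from -0.13 to 0.45. The interaction, the amount by which DKO departs from the sum of both single differences, was 0.07, -0.31 and -0.19, with 95% intervals from -0.30 to 0.44, from -0.83 to 0.21 and from -0.60 to 0.22. Departures from additivity inside those intervals were not detectable with 2 arrays a group.

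**Figure D2:**
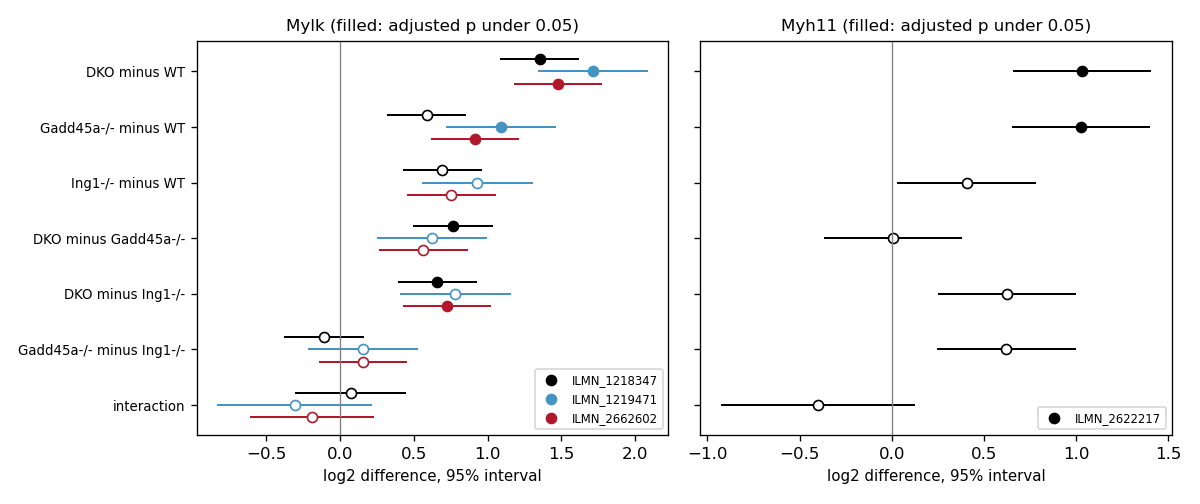
Log2 differences with 95% intervals (x axis) for each comparison (y axis) at the 3 kept Mylk probes and the kept Myh11 probe; filled points are called (limma adjusted p under 0.05). All 3 Mylk probes are called in DKO minus WT, from 1.35 to 1.71, and their interaction intervals include 0; Myh11 is near 0 in DKO minus Gadd45a-/-.

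Myh11, the smooth muscle myosin heavy chain, was higher on the arrays labelled DKO and Gadd45a-/-. It read 8.19 and 8.37 in DKO, 8.33 and 8.22 in Gadd45a-/-, 7.50 and 7.81 in Ing1-/-, and 7.10 and 7.40 in WT, at 1 of its 2 probes, the other being above background on no array. The DKO and Gadd45a-/- arrays overlapped, and all 4 lay above the Ing1-/- and WT arrays. DKO exceeded WT by 1.03 ± 0.16 (limma adjusted p = 0.014) and Gadd45a-/- exceeded WT by 1.03 ± 0.16 (limma adjusted p = 0.027). Ing1-/- minus WT was 0.41 ± 0.16 (limma adjusted p = 0.42), and DKO minus Gadd45a-/- was 0.00, with a 95% interval from -0.36 to 0.37. Gadd45a-/- minus Ing1-/- was 0.62 (limma adjusted p = 0.21), so a difference between the single knockouts was not shown. Leaving out WT replicate 1 ended the DKO call (limma adjusted p = 0.068), as did leaving out either DKO array (0.068 and 0.12). The Gadd45a-/- call was lost without either WT array (0.096 and 0.052), either Gadd45a-/- array (0.16 and 0.13) or either DKO array (0.059 each).

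The other smooth muscle and actin filament genes gave no call. Acta2, smooth muscle alpha-actin and the usual myofibroblast marker, read 14.91 and 14.91 in DKO, 14.70 and 14.90 in Gadd45a-/-, 14.87 and 14.84 in Ing1-/-, and 14.88 and 14.74 in WT at its brightest probe. The genotypes overlapped, and DKO minus WT had a 95% interval from -0.18 to 0.38. Its 5 kept probes gave DKO minus WT differences from 0.05 to 0.28, none called. The 0.28 came from a dim probe above background on both DKO arrays and on 1 array of each other genotype. That probe was kept only through DKO, and the others gave from 0.05 to 0.10. Actin paralogues have near-identical coding sequence, and cross-hybridisation was not examined. Tagln, the actin-binding protein SM22-alpha, read 12.06 and 12.02 in DKO, 12.03 and 11.92 in Gadd45a-/-, 12.02 and 11.99 in Ing1-/-, and 11.75 and 11.85 in WT. All 6 knockout arrays lay above both WT arrays, but the difference for DKO, 0.24 ± 0.11, was not called (limma adjusted p = 0.35).

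Tagln2, the non-muscle relative of Tagln, showed the same arrangement, with 13.94 and 14.12 in DKO, from 13.90 to 13.99 on the 4 single-knockout arrays, and 13.65 and 13.73 in WT (DKO minus WT 0.34 ± 0.11, limma adjusted p = 0.19). Smtn, the stress fibre protein smoothelin, read 10.80 and 10.97 in DKO and 10.29 and 10.68 in WT at its brightest probe (0.40 ± 0.16, limma adjusted p = 0.27). Tpm2, beta-tropomyosin, read 13.37 and 13.35 in DKO and 12.90 and 13.15 in WT (0.34 ± 0.13, limma adjusted p = 0.25). Myl9, a smooth muscle regulatory light chain and so a substrate of the Mylk product, read 13.17 and 13.28 in DKO and 13.03 and 12.87 in WT (0.27 ± 0.11, limma adjusted p = 0.30). Single knockouts differed from WT as much or more in some of these genes. In Gadd45a-/- and Ing1-/- the differences were 0.15 and 0.37 for Myl9, 0.43 and 0.50 for Smtn, and -0.02 and 0.10 for Tpm2. None of these passed the threshold in any comparison.

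The non-muscle motor gene Myh9, which encodes non-muscle myosin IIA, read 13.59 and 13.44 in DKO and 13.51 and 13.51 in WT, with a 95% interval of the difference from -0.25 to 0.26. The essential light chain gene Myl6, Tpm1 and Tpm4 likewise gave DKO minus WT differences of 0.00, 0.06 and -0.04 at the brightest probe. Cald1 (caldesmon), Cnn2 (calponin 2) and Lmod1 (leiomodin, an actin nucleator) gave 0.20, 0.20 and 0.22 at the brightest probe, none called. The 5 Cald1 probes differed in sign, with DKO minus WT from -0.01 to 0.49. So did the 3 probes of Tpm4 (from -0.23 to 0.61) and the 2 of Cnn2 (from -0.08 to 0.20). Srf read 11.16 and 11.17 in DKO, 11.04 and 10.93 in Gadd45a-/-, 11.25 and 11.06 in Ing1-/-, and 11.21 and 11.05 in WT, with overlapping genotypes and a 95% interval for DKO minus WT from -0.26 to 0.32. Several of these probes are among the brightest measured, with raw intensities up to 43747.79 for Ctgf and 40329.29 for Myl6, where the highest raw value of any probe on an array was from 33667.84 to 48177.85. Whether such probes were saturated was not tested.

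**Figure D3:**
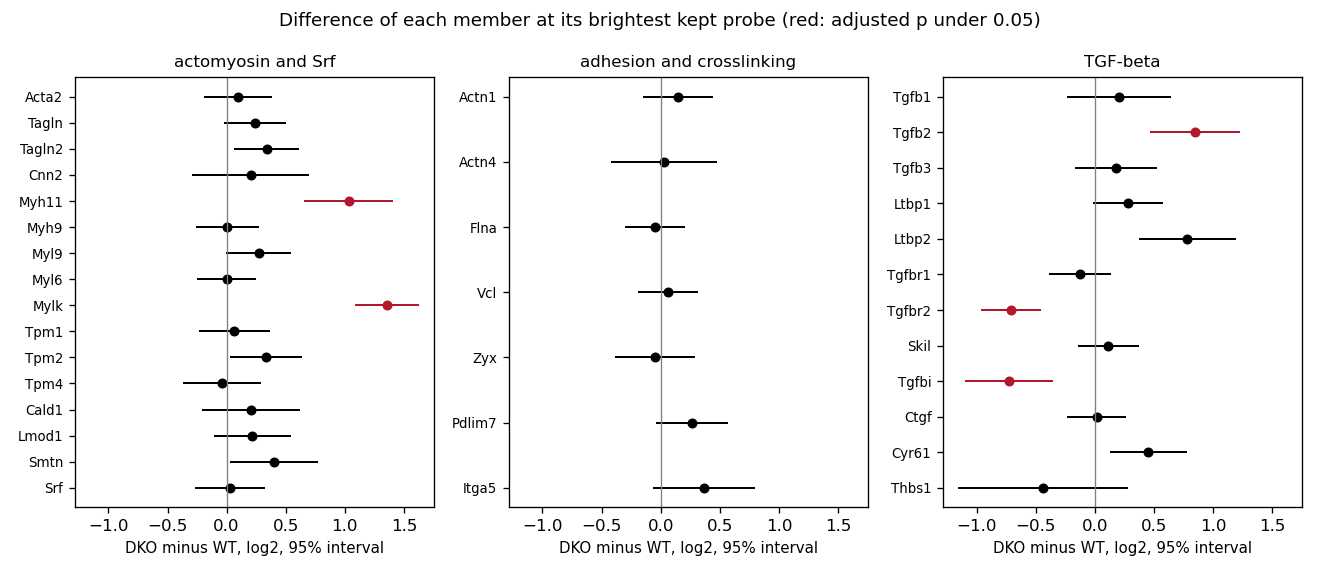
DKO minus WT log2 differences with 95% intervals (x axis) for the 35 measured members at their brightest kept probe (y axis), by role; red marks members called (limma adjusted p under 0.05). Mylk, Myh11 and Tgfb2 lie to the right and Tgfbr2 and Tgfbi to the left, while Acta2, Srf, Vcl and Ctgf sit within 0.10 of 0.

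Adhesion and crosslinking genes gave no call in any comparison at their 10 kept probes. Of all kept probes, from 0.148% (interaction) to 3.8% (DKO minus WT) were called, so 10 probes can well hold no call. Itga5, the alpha subunit of the fibronectin receptor, read 11.34 and 11.69 in DKO, 11.27 and 10.97 in Gadd45a-/-, 11.47 and 11.33 in Ing1-/-, and 10.97 and 11.33 in WT at its brightest probe, with both DKO arrays at or above the WT range (0.37 ± 0.18, limma adjusted p = 0.40). Its other kept probe read 10.20 and 10.27 in DKO, 9.74 and 9.93 in Gadd45a-/-, 10.09 and 9.68 in Ing1-/-, and 9.76 and 9.80 in WT. There DKO stood above all other arrays, and DKO minus WT was 0.46 ± 0.16 (limma adjusted p = 0.19). Vcl (vinculin, which ties actin to integrin-bound talin) read 13.43 and 13.51 in DKO and 13.41 and 13.40 in WT, with a 95% interval of the difference from -0.18 to 0.31. Flna, the actin crosslinker filamin A, read 12.99 and 13.03 in DKO, 12.81 and 12.83 in Gadd45a-/-, 12.86 and 12.95 in Ing1-/-, and 13.04 and 13.09 in WT, every knockout array lying below both WT arrays without a call. Zyx (zyxin) and the alpha-actinin genes Actn1 and Actn4 gave DKO minus WT differences of -0.05, 0.15 and 0.03, and Pdlim7, a PDZ and LIM adaptor, 0.27. The 2 WT arrays of Actn4 lay 0.52 apart at the brightest probe, more than any of that probe's differences from WT.

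Among the TGF-beta ligands Tgfb2 was higher in DKO. It read 9.52 and 9.56 in DKO, 9.01 and 9.13 in Gadd45a-/-, 8.71 and 9.17 in Ing1-/-, and 8.75 and 8.64 in WT, so the DKO arrays stood above the other 6 and the Ing1-/- arrays reached into the WT range. DKO minus WT was 0.85 ± 0.16 (limma adjusted p = 0.031), and the call was lost without either WT array (0.091 and 0.095), either Gadd45a-/- array (0.053 each) or either DKO array (0.16 and 0.18). DKO exceeded Gadd45a-/- by 0.47 and Ing1-/- by 0.60, neither called (limma adjusted p = 0.37 and 0.17). Tgfb1 read 9.83 and 9.88 in DKO, 10.13 and 9.55 in Gadd45a-/-, 9.76 and 9.71 in Ing1-/-, and 9.56 and 9.73 in WT, and the 2 Gadd45a-/- arrays enclosed the values of the other 6. Tgfb3 read 11.84 and 11.85 in DKO, 11.68 and 11.80 in Gadd45a-/-, 12.06 and 11.85 in Ing1-/-, and 11.50 and 11.82 in WT. Neither was called in any comparison.

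Neither of the latency genes Ltbp1 and Ltbp2 passed in DKO minus WT. Ltbp1 read 10.80 and 10.97 in DKO and 10.50 and 10.70 in WT (0.28 ± 0.13, limma adjusted p = 0.33). Its differences from WT were 0.35 in Gadd45a-/- and 0.24 in Ing1-/-, also not called. Ltbp2 was above background on both DKO arrays (6.50 and 6.20), both Gadd45a-/- arrays (6.04 and 6.24), 1 Ing1-/- array and no WT array, so it was kept only through the genotypes in which it was bright. The comparison of Ltbp2 with WT is therefore a description, and the fit did not call it.

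Tgfbr2, the type II receptor that binds the ligand, was lower in all 3 knockout genotypes. It read 11.43 and 11.49 in DKO, 11.75 and 11.74 in Gadd45a-/-, 11.85 and 11.89 in Ing1-/-, and 12.21 and 12.13 in WT at its only kept probe of 4. No 2 genotypes overlapped, and the order ran from DKO, the lowest, over Gadd45a-/- and Ing1-/- to WT. Against WT it fell by 0.71 ± 0.11 in DKO (limma adjusted p = 0.012), while the differences of Gadd45a-/- and Ing1-/-, -0.42 ± 0.11 and -0.30 ± 0.11, were not called (0.14 and 0.36). The interaction was 0.02, with a 95% interval from -0.33 to 0.36. Leaving out WT replicate 1 ended the DKO call (limma adjusted p = 0.068), as did leaving out either DKO array (0.11 and 0.089). Tgfbr1, the type I receptor, read 11.29 and 11.29 in DKO and 11.45 and 11.38 in WT at its brightest probe, a difference of -0.12 that was not called.

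Of the secreted products, Tgfbi, an extracellular adhesion protein named for its induction by TGF-beta, was lower in DKO at both probes. Probe ILMN_2834379 read 9.16 and 8.92 in DKO, 9.25 and 9.05 in Gadd45a-/-, 8.86 and 9.13 in Ing1-/-, and 9.66 and 9.86 in WT. Probe ILMN_2727663 read 6.13 and 6.04 in DKO, 6.83 and 6.28 in Gadd45a-/-, 6.75 and 6.24 in Ing1-/-, and 7.46 and 7.06 in WT. At both, all 6 knockout arrays lay below both WT arrays, and the 3 knockout genotypes overlapped at the first and DKO lay lowest at the second. DKO minus WT was -0.72 ± 0.16 at the first probe and -1.18 ± 0.24 at the second (limma adjusted p = 0.047 and 0.039). In Gadd45a-/- the differences were -0.61 and -0.70 (limma adjusted p = 0.15 and 0.27), and in Ing1-/- they were -0.77 and -0.76 (0.12 and 0.29). The call of the first probe was lost with any array left out (limma adjusted p from 0.061 to 0.28) and with the replicate number as a block (0.070), and that of the second without WT replicate 1 (0.17) or either DKO array (0.17 and 0.21).

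Ctgf (Ccn2) and Cyr61 (Ccn1), matricellular genes raised by TGF-beta and by YAP, did not pass. Ctgf read 15.13 and 15.12 in DKO, 15.19 and 15.19 in Gadd45a-/-, 15.27 and 15.20 in Ing1-/-, and 15.12 and 15.10 in WT, near the top of the intensity range. Cyr61 read 12.44 and 12.64 in DKO, 12.26 and 12.33 in Gadd45a-/-, 12.27 and 12.27 in Ing1-/-, and 11.94 and 12.23 in WT at its brightest probe. At this probe all 6 knockout arrays of Cyr61 lay above both WT arrays, and DKO minus WT was 0.45 ± 0.14 (limma adjusted p = 0.14). At its other kept probes the WT arrays, 10.19 and 11.11 at ILMN_1235571 and 11.17 and 10.61 at ILMN_2710253, enclosed every Gadd45a-/- and Ing1-/- array. The 3 Cyr61 probes gave DKO minus WT differences from 0.20 to 0.59. Thbs1, which can release TGF-beta from its latent complex, read 11.75 and 11.44 in DKO, 12.01 and 12.05 in Gadd45a-/-, 12.06 and 11.49 in Ing1-/-, and 12.50 and 11.56 in WT. The WT arrays of Thbs1 were 0.93 apart and enclosed all other values but 1 DKO and 1 Ing1-/- array. The antagonist Skil read 10.25 and 10.28 in DKO, 10.17 and 10.29 in Gadd45a-/-, 10.26 and 10.28 in Ing1-/-, and 10.12 and 10.18 in WT, with a 95% interval for DKO minus WT from -0.14 to 0.37.

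**Figure D4:**
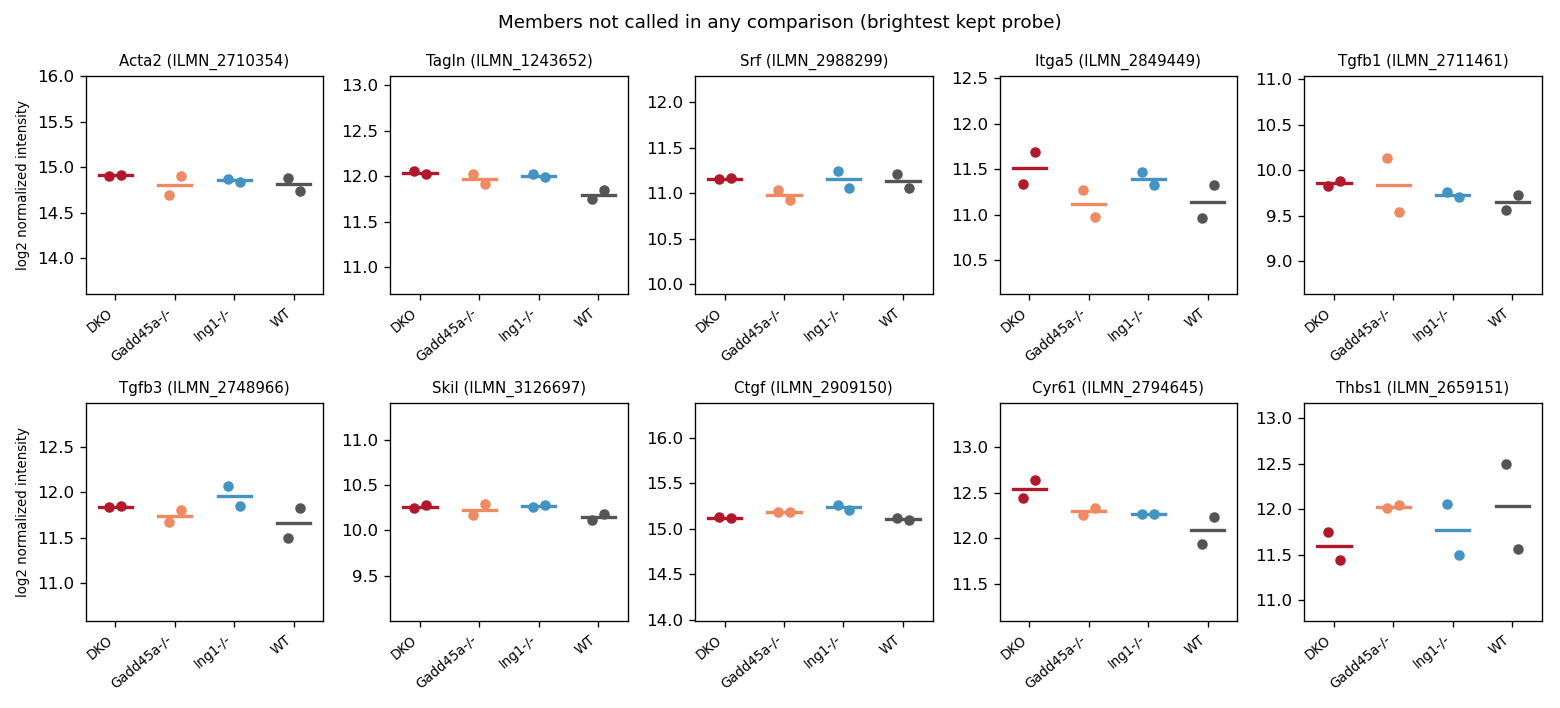
Log2 normalized intensity (y axis) on each array by genotype (x axis) for 10 members not called in any comparison, at the brightest kept probe; points are arrays and bars are means of 2. Acta2, Srf, Skil and Ctgf overlap or nearly overlap between genotypes, and the 2 WT arrays of Thbs1, at 12.50 and 11.56, are the widest pair.

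Counted over the 64 kept member probes, DKO minus WT gave 8 calls, 5 higher and 3 lower, where 3.8% of all tested probes were called (1.85% higher and 1.95% lower). They belong to 5 genes: Mylk, Myh11 and Tgfb2 higher, Tgfbr2 and Tgfbi lower. The count became 3, all of them Mylk, without WT replicate 1 or without either DKO array. Gadd45a-/- minus WT gave 3 calls, all higher, at Mylk and Myh11, where 1.33% of all probes were called (0.928% higher). That count became 1 without either WT array or either DKO array and 0 without either Gadd45a-/- array. Ing1-/- minus WT gave 0 calls in limma, where 0.417% of all probes were called. Of the member probes 15 had an unadjusted limma p under 0.05, 23.4% against 10.7% of all probes. Several of the 15 share a gene: in Ing1-/- minus WT they include all 3 Mylk probes and Cald1 probes of opposite sign (-0.49 and 0.53). With trended and robust variances in limma 4 member probes were called there, the 3 of Mylk (higher) and 1 of Tgfbi (lower). These comparisons share the WT arrays. Since the members were chosen with earlier results of these data known, their shares beside those of all probes are descriptions and not tests.

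DKO minus Gadd45a-/- gave 1 call and DKO minus Ing1-/- gave 2, all Mylk and all higher, where 0.39% and 1.11% of all probes were called (0.155% and 0.673% higher). The first count became 0 without any 1 of the 8 arrays, and the second became 0 without any array of a knockout genotype. Gadd45a-/- minus Ing1-/- and the interaction each gave 0 calls in limma, where 0.659% and 0.148% of all probes were called (0.498% and 0.0135% higher). Unadjusted p under 0.05 was reached by 2 member probes (3.12%, against 8.64% of all) and by 6 (9.38%, against 9.36%), and trended and robust variances gave 0 calls as well.

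At 1 probe a gene, the brightest, 28 of 35 members were above 0 in DKO minus WT, with a median difference of 0.18. Of all 8655 genes 52.2% were above 0, with a median of 0.01. These shares and those below are descriptions, since the members were chosen with earlier results of these data known. Among the 16 measured actomyosin genes 15 were above 0 (median 0.21), among the 7 adhesion genes 5 (median 0.07) and among the 12 TGF-beta genes 8 (median 0.15). Those 8 include Ltbp2, which was kept only through genotypes in which it was bright. In Gadd45a-/- minus WT 19 of 35 members (54.3%) were above 0, near the 52.1% of all genes (medians 0.05 and 0.01). In Ing1-/- minus WT the count was 25 (71.4%), beside 53.6% of all genes (medians 0.12 and 0.02). In DKO minus Gadd45a-/- it was 27 (77.1%), beside 48.5% (medians 0.07 and -0.01), and in DKO minus Ing1-/- 23 (65.7%), beside 47.7% (medians 0.05 and -0.01). The replicate arrays of a member lay a median of 0.06 apart in DKO, 0.11 in Gadd45a-/-, 0.10 in Ing1-/- and 0.14 in WT.

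Genes of the same pathways that are no members were counted next. Of all 8655 genes at the brightest probe, 192 were called higher and 190 lower in DKO minus WT. The counts were 100 and 41 in Gadd45a-/- minus WT and 20 and 22 in Ing1-/- minus WT. At such shares a list of this size can hold no call, and the marker counts further below stand beside the same shares. Of 23 measured regulators and further targets of actomyosin (33 listed) none was called in any comparison at its brightest probe. A dimmer probe of Myocd, the coactivator that joins SRF on smooth muscle genes, read 6.55 and 6.65 in DKO, 6.22 and 6.25 in Gadd45a-/-, 6.28 and 5.76 in Ing1-/-, and 5.65 and 5.22 in WT. It was above background on both DKO arrays and both Gadd45a-/- arrays, 1 Ing1-/- array and no WT array, so it was kept only through genotypes in which it was bright, and its comparison with WT is given as a description: DKO was at least 1.59-fold higher, set against the lowest signal above background. The brighter Myocd probe was above background on 1 WT array and on both arrays of each knockout genotype. It too was kept only through the knockout genotypes, so its difference, 0.47 ± 0.25 higher in DKO and not called, is also a description. Of 19 measured adhesion genes (24 listed) none was called in any comparison.

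Of 25 measured TGF-beta and YAP pathway genes (33 listed) 1 rose and 2 fell in DKO, and the same numbers in Gadd45a-/-, both against WT. Beside them, 192 of all 8655 genes were called higher and 190 lower in DKO, and 100 and 41 in Gadd45a-/-. Fst, the activin-binding follistatin, read 10.13 and 10.25 in DKO, 10.65 and 10.59 in Gadd45a-/-, 9.77 and 9.62 in Ing1-/-, and 9.63 and 9.40 in WT. It rose by 0.68 ± 0.13 in DKO and by 1.10 ± 0.13 in Gadd45a-/- (limma adjusted p = 0.031 and 0.010). Nrep, a small cytoplasmic protein studied in wound myofibroblasts, read 11.53 and 11.41 in DKO, 11.47 and 11.41 in Gadd45a-/-, 12.13 and 12.18 in Ing1-/-, and 12.45 and 12.60 in WT, and fell by 1.05 ± 0.11 and 1.08 ± 0.11 in DKO and Gadd45a-/- (limma adjusted p = 0.0034 and 0.0071). Tgfbr3, the TGF-beta coreceptor betaglycan that presents TGF-beta2 to the type II receptor, read 8.36 and 8.10 in DKO, 9.01 and 8.97 in Gadd45a-/-, 8.52 and 8.99 in Ing1-/-, and 9.43 and 9.47 in WT, and fell by 1.22 ± 0.17 in DKO (limma adjusted p = 0.0088). Tgfbr2 was also called lower in DKO, but the receptor genes Tgfbr1 and Eng were not called. Eng read 7.96 and 8.33 in DKO and 7.74 and 8.06 in WT. Of the ligand genes only Tgfb2 was called, and that call depended on single arrays. How far the Tgfbr3 call depends on single arrays was not tested. The other call in Gadd45a-/- was Col3a1, lower by 1.15 ± 0.20 (limma adjusted p = 0.039).

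Markers of other cell types were counted on the same arrays. In bulk RNA, fewer cells of a type and less RNA per cell cannot be told apart. Of 7 pericyte markers 4 were measured (Cspg4, Mcam, Notch3 and Des), all 4 above 0 in DKO minus WT and none called. Notch3 was above background on only 6 arrays, and Rgs5, Abcc9 and Kcnj8 were not kept. The summed linear level of the 4 ranged from 6064 to 6272 in DKO and from 5347 to 5416 in Gadd45a-/-. It ranged from 6407 to 7049 in Ing1-/- and from 4258 to 5143 in WT. Most of that sum is Mcam alone (12.31 and 12.38 in DKO, 11.76 and 12.12 in WT, log2). Of 15 skeletal muscle markers 6 were measured, all above 0 in DKO minus WT and none called, and Myod1, Myog and Myf5 were not kept. Their summed level ranged from 4263 to 4589 in DKO and from 3308 to 3582 in WT. Most of that sum is Acta1 alone (11.88 and 11.77 in DKO, 11.58 and 11.41 in WT, log2), an actin gene whose cross-hybridisation was not examined. Myh8 was above background on 6 arrays and Myl1 on only 3. Myl1 read highest in DKO (6.83 and 6.54, against 5.91 and 6.33 in WT), so the filter favoured its sign. Of 9 epithelial markers 4 were measured and Krt19, Sfn and Pkp1 were called higher in DKO, but Krt19 and Sfn were above background on no WT array and Pkp1 on 1, so all 3 were kept only through the knockout genotypes. The remaining measured marker, Krt8, went the other way without a call (6.10 and 5.81 in DKO, 5.90 and 6.86 in WT). The epithelial markers had a summed level from 466 to 470 in DKO, from 349 to 374 in Gadd45a-/-, from 245 to 261 in Ing1-/- and from 155 to 208 in WT, which includes signal not above background; Cdh1, Epcam, Krt18, Krt5 and Krt14 were not kept.

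Of 12 macrophage markers 6 were measured, with none called in DKO, 5 called higher in Gadd45a-/- and 1, C1qb, in Ing1-/-, all against WT. Of the 5, Cd52 was above background on no WT array and C1qb and C1qc on 1, so these 3 were kept only through other genotypes. The macrophage markers had summed levels from 1224 to 1286 in DKO, from 2753 to 2798 in Gadd45a-/-, from 1866 to 2175 in Ing1-/- and from 1380 to 1584 in WT. Most of each sum is Lyz1 alone. Of 7 endothelial markers only Emcn was measured, with a linear level from 132 to 133 in DKO, from 67 to 88 in Gadd45a-/-, from 116 to 122 in Ing1-/- and from 28 to 45 in WT. It was above background on all 6 knockout arrays and on no WT array, so it was kept only through the knockout genotypes, and the fit called it higher in DKO and in Ing1-/-, by at least 2.43-fold and 2.21-fold. Of the 10 fibroblast markers 9 were below 0 in DKO minus WT (median -0.32), and Pdgfra, a receptor that marks mesenchymal fibroblasts, was called lower. Pdgfra read 10.003 and 9.90 in DKO, 10.75 and 10.62 in Gadd45a-/-, 10.73 and 10.59 in Ing1-/-, and 11.06 and 11.26 in WT. The summed fibroblast level ranged from 85590 to 89782 in DKO, from 89927 to 94126 in Gadd45a-/-, from 97836 to 99716 in Ing1-/- and from 104782 to 104984 in WT. The part of any of these markers in the Mylk, Myh11, Tgfbr2 or Tgfbi differences was not tested.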

How the data were processed

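RNA of 8 fibroblast samples was measured on 1-colour Illumina BeadArrays. The deposited non-normalized table gives a linear average intensity and a detection p-value for each probe and array, per the file headers. GenomeStudio 2011.1 is named in the submitters' processing notes, without its role. A second deposited table holds the authors' processed intensity, with the same order of probes on an array as the raw table (Spearman's rho 1); its scale and centring are unknown, and it served as an alternative.

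Normalization used neqc of limma 3.58.1 under R 4.3.3 (negative controls inferred from detection p, offset 16, quantile, log2). Of 45281 probes 14867 (32.8%) were kept. Probes were named only where the platform annotation gave 1 symbol (34885 probes, 34807 matched to the GRCm38.p6 gene table). A linear model with a term for each genotype covered all 8 arrays (lmFit, eBayes; residual df 4, prior df 3.79), with Benjamini-Hochberg adjustment over all kept probes in each comparison. Fold changes of dim probes are understated by the offset. Counts by gene used its brightest kept probe, by the mean over arrays. The rule for named genes accounts for all 37 members and prints every array for called probes and for a fixed set of defining members. The members and lists were chosen with earlier results of these data known. The fit was tested on simulated data.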

Additional observations from a re-analysis of the deposited data

How the results depend on the processing

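The 3 Mylk calls in DKO minus WT held under all 19 alternatives (differences from 1.27 to 1.90), and no called member difference changed sign under any alternative. Other calls rest on few degrees of freedom and on single arrays. The DKO minus WT count of 8 member probes became 5 with no detection filter and 5 with only the 2 genotypes compared, and from 3 to 7 with an array left out. For Gadd45a-/- minus WT the count of 3 became 6 with no background correction, 6 with trended and robust variances, 1 with no detection filter and 0 with only the 2 genotypes compared, and from 0 to 3 with an array left out. For Ing1-/- minus WT the count of 0 became 4 with normexp and offset 50, 4 with no background correction, 4 with trended and robust variances and 3 at an adjusted p under 0.1. For DKO minus Gadd45a-/- the count of 1 became 0 with median scaling, the authors' processed values, no detection filter, the replicate block or only the 2 genotypes compared, 2 with trended and robust variances, and 0 with any array left out. For DKO minus Ing1-/- the count of 2 became 1 with median scaling, 0 with the authors' processed values, no detection filter, the replicate block or only the 2 genotypes compared, 4 with trended and robust variances, and from 0 to 2 with an array left out. Both counts of 0, for Gadd45a-/- minus Ing1-/- and the interaction, stayed 0 under every alternative run (the interaction needs all 4 genotypes, so it has no value with only 2). The split of calls in DKO minus WT was 5 higher and 3 lower, against 6 higher and 1 lower with the authors' processed values; in Gadd45a-/- minus WT it was 3 and 0, against 4 and 2 with no background correction. Leaving out an array lowers the residual degrees of freedom of the whole fit, and a lone array is then assumed to vary like the other groups. Replicate numbers were not taken as pairs: replicate differences of 2 genotypes correlated from -0.09 to 0.28. The replicate block left 7 calls in DKO minus WT and 3 in Gadd45a-/- minus WT. Brightness limits what can be said of probes near the top of the range (Ctgf, Myl6, Acta2) and near background (Ltbp2, the second Tgfbi probe).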
